A study of Mus musculus with 96 samples.

Results

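The muscarinic and histamine receptor genes were Chrm1, Chrm2, Chrm3, Chrm4, Chrm5, Hrh1, Hrh2 and Hrh3, 8 of the 19505 genes measured. Members were taken by gene symbol, and each was measured by 1 transcript cluster, the set of probes that is summarised into a single value. RNA of 4 tissues (striatum, pancreas, liver and the gonadal fat pad) from 24 C57BL/6JOlaHsd mice was hybridised to Clariom S arrays, 96 in all. The mice received olanzapine at 3.5 mg/kg, risperidone at 1 mg/kg or vehicle, which was saline with dimethylsulfoxide and Tween 20, as a daily subcutaneous injection for 28 days, and were killed 1 h after the last one. Each group had 8 mice, 4 females and 4 males, and all mice were fed standard chow. They had been bought at the age of 6 weeks, and at least 10 days of acclimatisation came before the first injection. Values are log2 expression values, so a difference of 1 is a doubling.

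Both drugs block dopamine and serotonin receptors. Olanzapine also binds muscarinic receptors and the histamine receptor encoded by Hrh1 with high affinity. Risperidone has little affinity for muscarinic receptors. The products of Chrm1, Chrm3, Chrm5 and Hrh1 couple to Gq, which activates phospholipase C. Those of Chrm2, Chrm4 and Hrh3 couple to Gi and Go, which inhibit adenylyl cyclase, and that of Hrh2 couples to Gs, which activates it. In the striatum, projection neurons carry the products of Chrm1 and Chrm4, and Chrm4 is more abundant in those of the direct pathway. The products of Chrm2 and Hrh3 act in part as autoreceptors that restrain the release of acetylcholine and histamine. That of Chrm3 drives secretion by pancreatic acinar and beta cells, and that of Chrm5 is known from midbrain dopamine neurons.

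In GRCm38.p6, the assembly of the RefSeq annotation, Chrm4 lies at chr2:91922189-91929835, Chrm5 at chr2:112478733-112536361 and Hrh3 at chr2:180099465-180104484. Chrm1 lies at chr19:8664005-8683606. Chrm2 and Hrh1 are on chromosome 6, and Chrm3 and Hrh2 on chromosome 13. Promoter windows from 250 bases before to 50 bases after an annotated start were given by RefSeq for 7 of the 8 members, and not for Chrm1. The windows of Chrm4 and Hrh3 are shown because an exact test between groups gave p under 0.05 for both genes in the striatum. The window of Chrm5, for which this also held, is not shown because it lies far inside the gene and not at its outermost start. Capitals mark GGGCGG (an Sp1 motif) and CCAAT on either strand, and overlapping matches run together.
Chrm4 promoter, chr2:91921939-91922238, plus strand: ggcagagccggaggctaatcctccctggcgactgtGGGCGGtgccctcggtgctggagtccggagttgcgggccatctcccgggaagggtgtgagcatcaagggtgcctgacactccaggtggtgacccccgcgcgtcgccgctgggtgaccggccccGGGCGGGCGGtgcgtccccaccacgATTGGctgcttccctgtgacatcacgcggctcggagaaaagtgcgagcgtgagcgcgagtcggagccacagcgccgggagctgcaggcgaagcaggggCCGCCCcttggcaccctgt
Hrh3 promoter, chr2:180104358-180104657, minus strand: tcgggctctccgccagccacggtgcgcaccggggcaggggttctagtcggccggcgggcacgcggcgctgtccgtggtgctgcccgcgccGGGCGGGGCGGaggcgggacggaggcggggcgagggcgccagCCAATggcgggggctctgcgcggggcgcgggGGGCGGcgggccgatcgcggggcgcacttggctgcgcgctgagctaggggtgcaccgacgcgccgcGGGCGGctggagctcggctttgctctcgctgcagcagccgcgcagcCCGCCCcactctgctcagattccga
The Chrm4 window had 70.7% G or C, 30 CpG dinucleotides, 4 matches to GGGCGG and 1 to CCAAT. The Hrh3 window had 79.0% G or C, 47 CpG dinucleotides, 5 matches to GGGCGG and 1 to CCAAT. Over all 32817 windows, 35.6% held GGGCGG and 37.4% held CCAAT, and the median window had 7 CpG dinucleotides. Neither window held TATAAA (13.6% of all windows) or the cyclic AMP response element TGACGTCA (1.79%).

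Striatal and liver arrays carried the defining markers of their tissues. In the striatum, 6 of 6 measured projection neuron markers were above background on all 24 arrays, and in the liver the hepatocyte marker Alb lay between 19.69 and 19.93. In the adipose tissue, the mean of 4 epididymis markers lay between 19.20 and 19.33 in risperidone-treated males M4, M5 and M23. The lowest mean of 4 adipocyte markers was 10.015 under risperidone, 11.85 under olanzapine and 12.54 under vehicle. Background on an array was taken as the 95th percentile of its 1091 olfactory receptor genes. It ranged over 7.02 to 7.69 for striatal arrays and 5.94 to 6.55 for liver arrays, and reached higher on pancreatic (8.05 to 10.61) and adipose arrays (7.65 to 10.8). RNA of the pancreas and adipose tissue was labelled with the Pico kit and that of the other tissues with the WT PLUS kit, so tissues were not tested against each other. Arrays of one tissue correlated closely for striatum and liver, with medians per array of 0.977 to 0.988 and 0.971 to 0.979, and less so for pancreas (0.647 to 0.847) and adipose tissue (0.797 to 0.954). In bulk tissue, fewer cells of a type and less RNA per cell cannot be told apart.

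The striatal arrays fell on both sides of a gap in a marker list of other brain regions. The mean of the septum and thalamus markers Slc17a6, Tcf7l2, Calb2, Zic1 and Lhx9 lay between 7.88 and 9.90 in 12 mice and between 11.92 and 13.68 in the other 12. Above the gap were 7 of 8 olanzapine-treated mice (all but M9), 1 of 8 risperidone-treated mice (F23) and 4 of 8 vehicle-treated mice (F20, M3, M19 and M21). Of these 5 markers, Tcf7l2 and Zic1 were above background on all 24 arrays, Slc17a6 on 20, Calb2 on 17 and Lhx9 on 10. The levels of Chrm1 on the 2 sides did not overlap, at 9.11 to 10.73 above the gap and 11.06 to 11.85 below it. Those of every other member overlapped, for Chrm4 at 8.02 to 10.66 above the gap and 10.59 to 11.80 below it. For how many of all genes the 2 sides did not overlap was not computed.

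The receptors were best measured in the striatum, where 5 of 8 were above background on all 24 arrays. These were Chrm1, Chrm3, Chrm4, Hrh1 and Hrh3, while Chrm2 was above it on 23 arrays, Hrh2 on 13 and Chrm5 on 5. The median striatal background was 7.32, below the array medians of 7.66 to 7.74, so most genes of a typical array passed it. The share of all genes above it on all 24 arrays was not computed. Chrm3 and Hrh1 lay at the 52.8th and 52.9th percentiles of all genes. Hrh3 lay between 14.02 and 15.05 with a median of 14.71, at the 98.1th percentile of the genes of an array in the median. Chrm1 had a median of 10.90 and Chrm4 one of 10.66, and the medians of Chrm2, Chrm3 and Hrh1 lay between 7.94 and 7.95. Probes differ in how brightly they respond, so these values do not rank the receptors by abundance.

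Outside the brain the receptors were near or below background. The median background lay above the array medians in the pancreas (9.445 against 6.69 to 6.90) and adipose tissue (8.96 against 7.41 to 7.65). In the liver it was 6.17, against 6.12 to 6.29. A value below background in the pancreas or adipose tissue therefore does not show that a receptor was absent. In the liver, Hrh1 was above it on 15 of 24 arrays and Chrm2 on 1, and the other 6 genes on none. Hepatic Hrh1 had a median of 6.26, with 5.89, 6.36 and 6.95 as the lowest, median and highest values in olanzapine-treated mice, 5.55, 6.21 and 6.65 in risperidone-treated mice, and 5.80, 6.26 and 6.40 in vehicle-treated mice. Pancreatic Chrm2 was above background on 2 arrays and adipose Chrm2 on 5, and no other member passed it in either tissue. Pancreatic Chrm2 had a median of 8.74 and Chrm3 one of 8.12, at the 89.3th and 81.0th percentiles of all genes, while the olfactory receptor genes of those arrays were themselves bright. The medians of Hrh3 were 4.67 for liver, 4.89 for pancreas and 4.37 for adipose tissue, at the 20.7th, 5.69th and 0.682th percentiles of all genes.

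**Figure D1:**
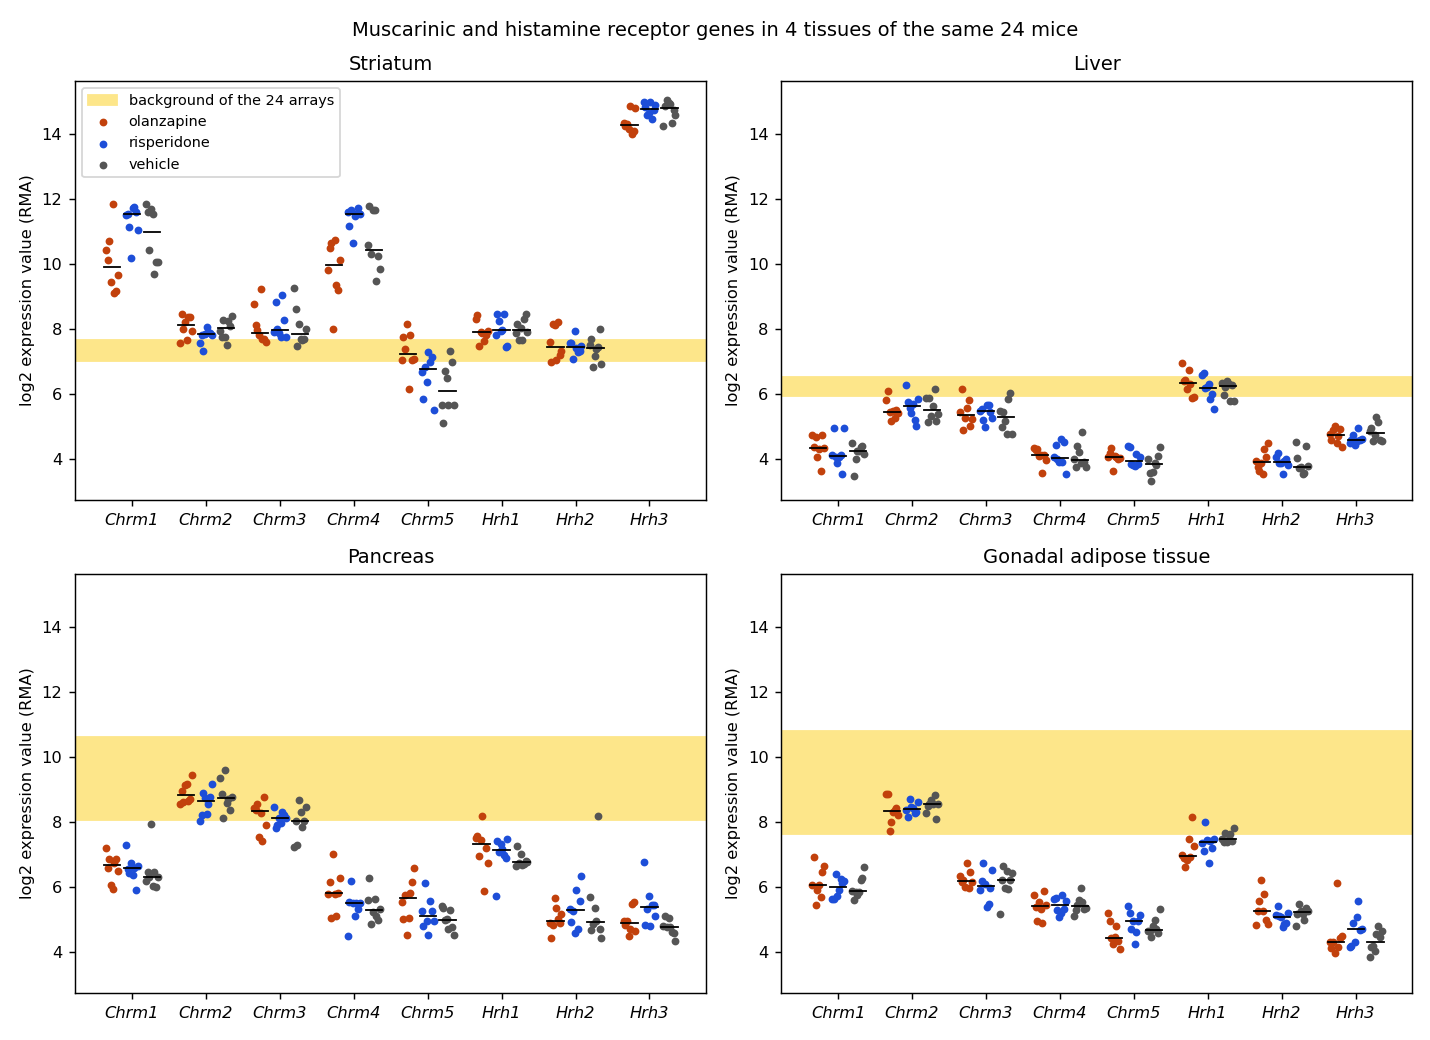
Log2 expression values of the 8 receptor genes in each tissue, 1 point per mouse and 8 mice per group, with the group median as a bar and the range of background over the 24 arrays of the tissue as a band. In the striatum Hrh3 lies between 14.02 and 15.05 and Chrm1 and Chrm4 spread widely, while outside the brain most points lie below or within the band.

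The next comparison asked whether the receptor genes differed between the drugs in the striatum. Chrm1 and Chrm4 fell in olanzapine-treated mice relative to risperidone-treated mice, the only 2 of 8 members called at an adjusted p under 0.05 by limma, with 0 higher. In that comparison 948 genes were called, or 4.86% of all genes, and 5 of 8 members passed an unadjusted p under 0.05, against 19.1% of all genes. The call of Chrm1 was lost without any one of 13 of the 24 mice (adjusted p 0.00250 to 0.0919 over the mice left out) and by exact permutation of all genes (adjusted p = 0.128), whereas Chrm4 was called in each of these. The drugs were compared with each other directly, but both comparisons with vehicle share the same 8 vehicle-treated mice.

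Striatal Chrm4 had 8.02, 9.97 and 10.76 as its lowest, median and highest values in olanzapine-treated mice, against 10.66, 11.55 and 11.73 in risperidone-treated mice. In 7 of 8 olanzapine-treated mice Chrm4 was below every risperidone-treated mouse. The log2 fold change was -1.62 ± 0.35 (SE, n = 8 each, 95% interval -2.33 to -0.91, adjusted p = 0.0115). The exact two-sided permutation p was 0.000408, the smallest that 4900 relabellings within sex can give. The difference was -1.53 in females and -1.71 in males.

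Striatal Chrm1 had 9.11, 9.91 and 11.85 as its lowest, median and highest values in olanzapine-treated mice, against 10.19, 11.54 and 11.77 in risperidone-treated mice. The groups overlapped, since olanzapine-treated mouse M9 had 11.85, above every risperidone-treated mouse, and risperidone-treated mouse F23 had 10.19. The log2 fold change was -1.26 ± 0.35 (SE, n = 8 each, 95% interval -1.98 to -0.53, adjusted p = 0.0375), and the exact permutation p was 0.0118. M9 and F23 are the same mice that lay on the other side of the marker gap from the rest of their groups.

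Neither fall was called once the septum and thalamus markers were in the model, but these markers were nearly split by drug. Above the gap were 7 of 8 olanzapine-treated mice and 1 of 8 risperidone-treated mice. Drug and marker content can therefore hardly be told apart, and the covariate does not decide between them. Calb2, which labels a calcium-binding protein of thalamic and other neurons, rose by 5.09 ± 1.16 (SE, adjusted p = 0.0135) in olanzapine-treated mice relative to risperidone-treated mice, and Slc17a6, a vesicular glutamate transporter of the thalamus, rose by 3.45 ± 0.98 (SE, adjusted p = 0.0396). The mean of the list had 8.10, 13.26 and 13.68 as its lowest, median and highest values in olanzapine-treated mice, against 7.88, 8.80 and 12.53 in risperidone-treated mice and 8.10, 10.62 and 13.37 in vehicle-treated mice. With that mean as a covariate, an alternative added after seeing the data, the log2 fold change was -0.20 ± 0.22 for Chrm1 (SE, adjusted p = 0.836) and -0.79 ± 0.30 for Chrm4 (SE, adjusted p = 0.386).

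Markers of other cell types differed between olanzapine-treated and risperidone-treated mice as well. The 6 projection neuron markers all fell, with a median log2 fold change of -1.66 and a mean of the list between 11.16 and 14.38 in olanzapine-treated mice, 14.58 and 15.57 in risperidone-treated mice, and 13.35 and 15.59 in vehicle-treated mice. The 4 indirect pathway markers also fell, and 2 of 5 direct pathway markers did (Drd1 and Tac1). Of the choroid plexus markers 2 of 5 fell, and the list mean lay between 7.72 and 10.63 under olanzapine, 8.09 and 12.46 under risperidone, and 7.51 and 11.56 under vehicle. None of 4 cortical pyramidal markers, 4 oligodendrocyte markers, 5 cholinergic interneuron markers or 5 mast cell markers was called. The median log2 fold changes of these lists were -1.005 for cortical, -0.40 for oligodendrocyte, -0.24 for cholinergic and 0.07 for mast cell markers. The part of these cells in the fall of Chrm1 and Chrm4 was not tested beyond the covariate.

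The ranges of Chrm1 overlapped between the groups of vehicle-treated mice and of the more numerous drug on each side of the gap. Above it Chrm1 was between 9.11 and 10.73 in 7 olanzapine-treated mice, 10.19 in 1 risperidone-treated mouse, and between 9.70 and 10.45 in 4 vehicle-treated mice. The log2 fold change of Chrm1 there was -0.50 ± 0.22 (SE, adjusted p = 0.567) for olanzapine against vehicle. Below it Chrm1 was 11.85 in 1 olanzapine-treated mouse, between 11.06 and 11.77 in 7 risperidone-treated mice, and between 11.56 and 11.85 in 4 vehicle-treated mice. Chrm4 above the gap was between 8.02 and 10.65 in the olanzapine-treated mice, 10.66 in the risperidone-treated mouse, and between 9.50 and 10.31 in the vehicle-treated mice. Chrm4 below it was 10.76 in the olanzapine-treated mouse, between 11.19 and 11.73 in the risperidone-treated mice, and between 10.59 and 11.80 in the vehicle-treated mice.

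**Figure D2:**
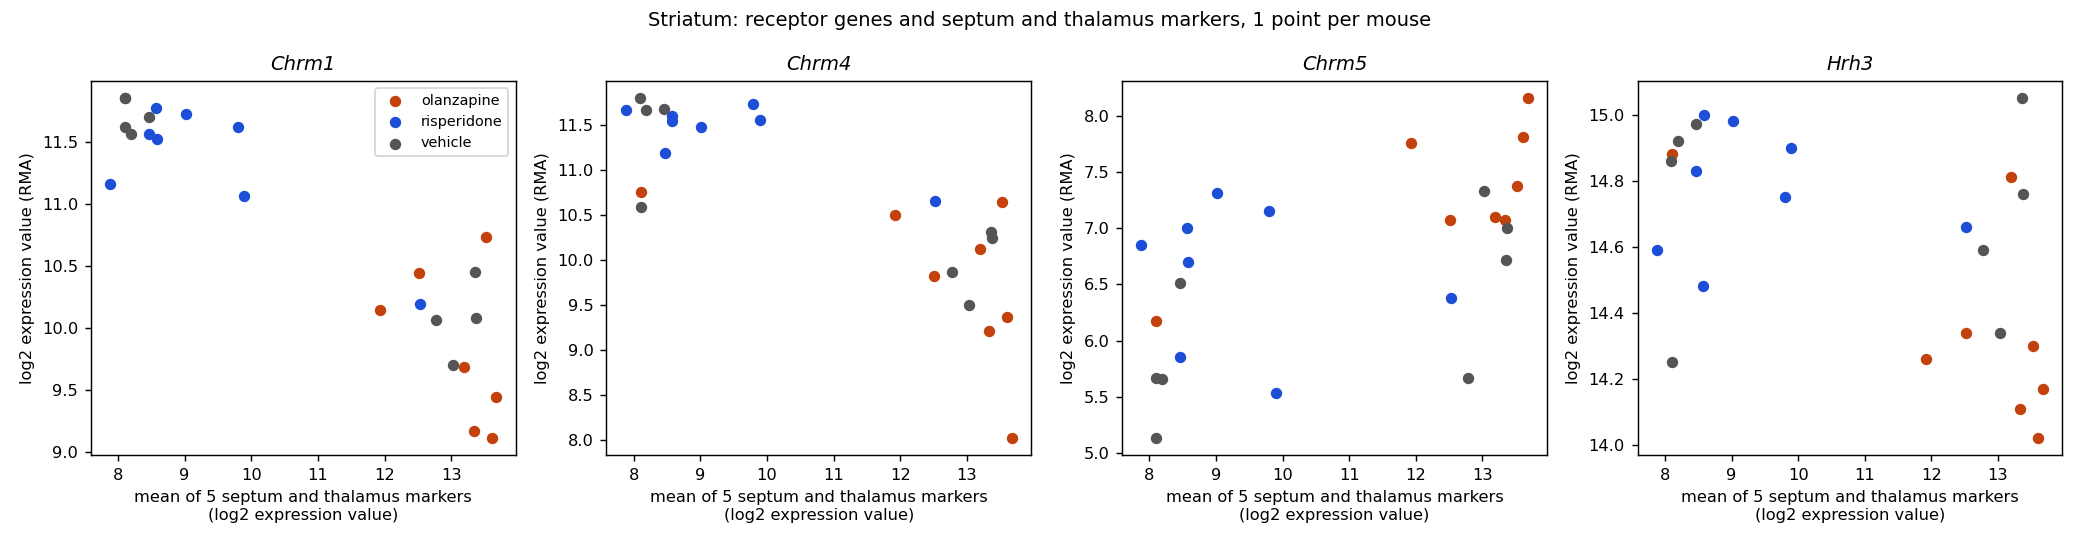
Striatal log2 expression values of Chrm1, Chrm4, Chrm5 and Hrh3 in each mouse against the mean log2 value of 5 septum and thalamus markers, coloured by treatment. Chrm1 is between 9.11 and 10.73 in the 12 mice on the right of the gap and between 11.06 and 11.85 in the 12 on the left, and 7 of 8 olanzapine-treated mice lie on the right.

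Neither Chrm5 nor Hrh3 was called between the drugs in the striatum. Chrm5 had 6.17, 7.24 and 8.16 as its lowest, median and highest values in olanzapine-treated mice, against 5.53, 6.78 and 7.31 in risperidone-treated mice, a log2 fold change of 0.72 ± 0.31 (SE, n = 8 each, adjusted p = 0.191, exact permutation p = 0.0449). Hrh3 had 14.02, 14.28 and 14.88 in olanzapine-treated mice, against 14.48, 14.79 and 15.00 in risperidone-treated mice, a log2 fold change of -0.41 ± 0.14 (SE, adjusted p = 0.0871, exact permutation p = 0.0114). For Hrh3, 6 of 8 olanzapine-treated mice lay below every risperidone-treated mouse. With the septum and thalamus markers as a covariate, the differences were 0.20 ± 0.32 (SE) for Chrm5 and -0.29 ± 0.16 (SE) for Hrh3. Among the other members, Chrm2 had a log2 fold change of 0.30 ± 0.14 (SE, adjusted p = 0.260), and those of Chrm3, Hrh1 and Hrh2 lay between -0.07 and 0.11.

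Olanzapine against vehicle asked the same question with a common control, and no member was called in the striatum. limma called 0 genes (0% of all genes), and 4 of 8 members passed an unadjusted p under 0.05, against 10.5% of all genes. Chrm5 had 6.17, 7.24 and 8.16 as its lowest, median and highest values in olanzapine-treated mice, against 5.13, 6.09 and 7.33 in vehicle-treated mice. Its log2 fold change was 1.10 ± 0.31 (SE, n = 8 each, 95% interval 0.47 to 1.74, adjusted p = 0.268, exact permutation p = 0.0114), with 1.59 in females and 0.62 in males. Chrm5 was above background in 4 olanzapine-treated mice and in 1 vehicle-treated mouse, so most of its values lay where olfactory receptor genes lie. Under the marker covariate its log2 fold change was 0.80 ± 0.29 (SE, adjusted p = 0.579), and among the 7 olanzapine-treated and 4 vehicle-treated mice above the gap it was 0.73 ± 0.29 (SE, adjusted p = 0.550).

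Neither Chrm1 nor Chrm4 was called for olanzapine against vehicle. Striatal Chrm1 had a median of 9.91 in olanzapine-treated mice, against 9.70, 11.01 and 11.85 as the lowest, median and highest values in vehicle-treated mice, a log2 fold change of -0.81 ± 0.35 (SE, n = 8 each, adjusted p = 0.414, exact permutation p = 0.0886). Striatal Chrm4 had a median of 9.97 in olanzapine-treated mice, against 9.50, 10.45 and 11.80 in vehicle-treated mice, a log2 fold change of -0.90 ± 0.35 (SE, n = 8 each, adjusted p = 0.340, exact permutation p = 0.0698). With the marker covariate these were -0.20 ± 0.20 (SE, adjusted p = 0.875) for Chrm1 and -0.43 ± 0.27 (SE, adjusted p = 0.748) for Chrm4. Hrh3 had a median of 14.28 in olanzapine-treated mice, against 14.25, 14.81 and 15.05 in vehicle-treated mice, a log2 fold change of -0.36 ± 0.14 (SE, n = 8 each, adjusted p = 0.354, exact permutation p = 0.0478). Among the mice above the gap the log2 fold change of Hrh3 was -0.44 ± 0.18 (SE, adjusted p = 0.552).

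Risperidone against vehicle gave no called member in the striatum. limma called 0 genes (0% of all genes), and 1 of 8 members passed an unadjusted p under 0.05, against 5.4% of all genes. That member was Chrm4, with a log2 fold change of 0.72 ± 0.35 (SE, n = 8 each, 95% interval 0.01 to 1.43, adjusted p = 0.913, exact permutation p = 0.0657). Among the 7 risperidone-treated and 4 vehicle-treated mice below the marker gap it was 0.05 ± 0.21 (SE). Chrm2 had 7.57, 8.12 and 8.47 as its lowest, median and highest values in olanzapine-treated mice, 7.32, 7.86 and 8.07 in risperidone-treated mice, and 7.53, 8.04 and 8.42 in vehicle-treated mice. Hrh1, the main antihistamine target, had medians of 7.91, 7.98 and 7.99 in olanzapine-treated, risperidone-treated and vehicle-treated mice. It differed from vehicle by -0.03 under risperidone (95% interval -0.36 to 0.31) and by -0.08 under olanzapine (95% interval -0.42 to 0.25). Hrh2 had medians of 7.47 in both drug groups and 7.43 in vehicle-treated mice, and was above background in 4, 4 and 5 mice of these groups.

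**Figure D3:**
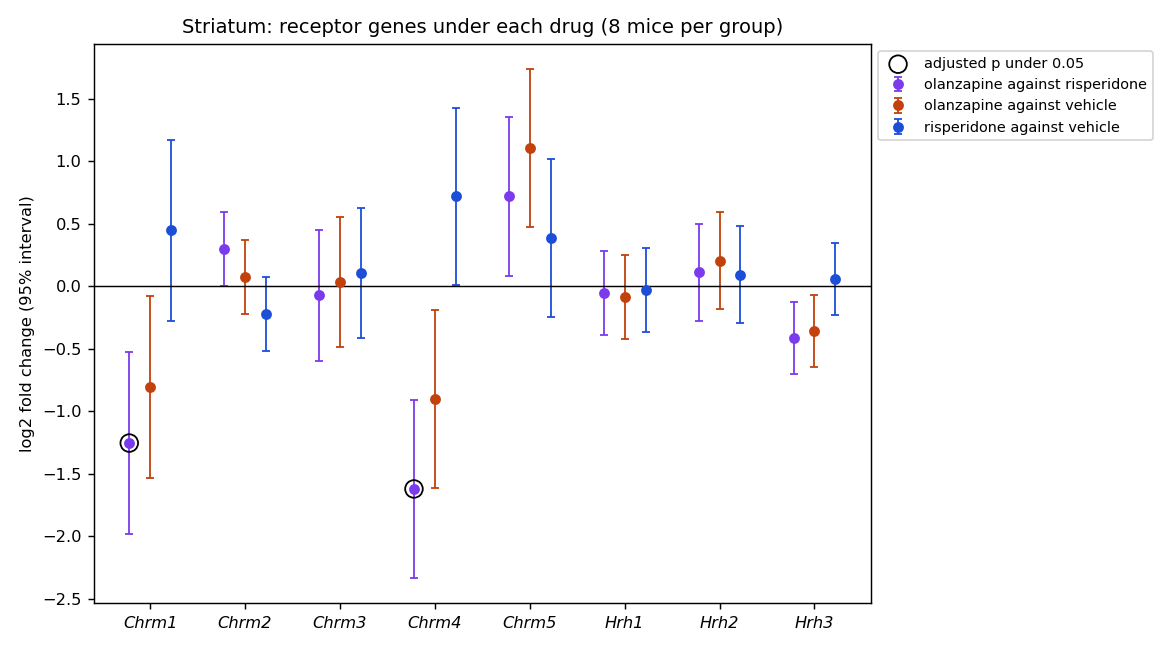
Log2 fold changes of the 8 receptor genes in the striatum for 3 comparisons of 8 against 8 mice, with 95% intervals and rings around those with an adjusted p under 0.05. Only Chrm1 (-1.26) and Chrm4 (-1.62) in olanzapine-treated against risperidone-treated mice are ringed.

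Striatal Chrm3, a receptor also carried by cortical neurons, was called in no comparison. Its lowest, median and highest values were 7.60, 7.89 and 9.25 in olanzapine-treated mice, 7.75, 7.97 and 9.07 in risperidone-treated mice, and 7.48, 7.86 and 9.28 in vehicle-treated mice, so the groups overlapped throughout. The highest mouse of each group for Chrm3 (M9, M5 and F1) was also the highest of its group for the mean of 4 cortical pyramidal markers, at 12.38 under olanzapine, 12.03 under risperidone and 12.46 under vehicle. The log2 fold change of Chrm3 under olanzapine against vehicle was 0.04 ± 0.25 (SE, 95% interval -0.49 to 0.56). Mice M9, M5 and F1 were the highest of their groups for striatal Chrm1 too, at 11.85, 11.77 and 11.85. The part of cortical cells in these levels was not tested.

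For each member above background on all 24 striatal arrays, the 3 genes with the most similar pattern were found from Pearson correlations of residuals after treatment and sex over 24 mice. The arrays share a platform and the marker gap, so the values are descriptions. Chrm1 was most like Ctxn1 (r = 0.946), Camk2a (r = 0.939), a kinase of forebrain synapses, and Dmtn (r = 0.936). Chrm4 was most like Arhgap10 (r = 0.952), Hpca (r = 0.948), a neuronal calcium sensor, and Chst15 (r = 0.945). Within the 12 mice above the gap the raw values of Chrm1 and Ctxn1 had r = 0.890, and within the 12 below it r = 0.349. The raw values of Chrm1 and Camk2a had r = 0.774 above and r = 0.772 below. For Chrm1 and Dmtn these were r = 0.602 above and r = 0.725 below. The raw values of Chrm4 and Hpca had r = 0.917 above and r = 0.885 below. Chrm3 was most like Kcnt2 (r = 0.937), Ttc9b (r = 0.897) and Kcnh7 (r = 0.895), Kcnt2 and Kcnh7 being potassium channel genes. Hrh1 was most like Ngly1 (r = 0.830), Dcaf5 (r = 0.815) and Marcksl1 (r = 0.783). Hrh3 was most like Dazl (r = 0.823), Mcpt2 (r = 0.741) and Adamts12 (r = 0.739). The raw values of Hrh3 and Dazl had r = 0.857 above the gap and r = 0.739 below. For Mcpt2 these were r = 0.853 above and r = 0.605 below, and for Adamts12 r = 0.673 above and r = 0.329 below.

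The genes around the receptors were described over 78 measured genes of 7 lists. In the striatum, 8 rose and 6 fell in olanzapine-treated mice relative to risperidone-treated mice, and 36 (46.2%) passed an unadjusted p under 0.05, as did 19.1% of all genes. Of all genes 557 rose and 391 fell, and the median log2 fold change was -0.01 for the 78 genes and for all genes. In the Gq list 2 of 12 genes fell and none rose, namely Plcb1 (-0.88 ± 0.23, SE) and Prkcb (-0.81 ± 0.20, SE), a phospholipase C and a protein kinase C. In the Gi and Go list, Adcy5, the main adenylyl cyclase of striatal neurons, fell (-1.27 ± 0.31, SE), Adcy8 rose (1.63 ± 0.40, SE) and 13 of 15 genes were not called. In the Gs list 3 of 10 genes rose and none fell, among them Gnas (0.85 ± 0.20, SE), the Gs alpha subunit. Of 10 desensitisation genes, Grk3 and Rgs7 rose and Rgs9 and Rgs4 fell, Rgs9 (-1.56 ± 0.36, SE) being also on the projection neuron list. Of 16 nicotinic receptor subunits, Chrna4 (1.20 ± 0.36, SE) and Chrnb2 (0.72 ± 0.20, SE) rose, and these subunits are abundant in the thalamus. The part of the septum and thalamus markers in these changes was not tested.

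Genes that make or remove the transmitters mostly did not pass. Prima1, which anchors acetylcholinesterase in membranes, fell by 0.75 ± 0.17 (SE, adjusted p = 0.0137) in olanzapine-treated mice relative to risperidone-treated mice and was the only gene called of 8 for acetylcholine. Ache, acetylcholinesterase itself, had a log2 fold change of 0.82 ± 0.29 (SE, adjusted p = 0.0995). None of 7 histamine genes was called. Among them Hdc, which makes histamine, had 0.69 ± 0.22 (SE, adjusted p = 0.0721) and Maob, which breaks down its methylated form, 0.82 ± 0.26 (SE, adjusted p = 0.0632). Chat, the defining marker of cholinergic neurons, was above background on 1 of 24 striatal arrays, and Slc18a3, of the same marker list, on 0. Slc5a7, the choline transporter of those neurons, and Lhx8 were above it on all 24, and Gbx2 on 17.

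Against vehicle, none of the 78 genes was called in the striatum. At an unadjusted p under 0.05, 15 of them (19.2%) passed under olanzapine, where 10.5% of all genes did, and 3 (3.85%) under risperidone, where 5.4% of all genes did. The lowest adjusted p was 0.268 under olanzapine and 0.913 under risperidone.

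In the liver, no member was called under either drug. limma called 4 genes (0.0205%) for olanzapine against vehicle, 8 genes (0.041%) for risperidone against vehicle and 11 genes (0.0564%) for olanzapine against risperidone. At an unadjusted p under 0.05, 0 of 8 members passed in each comparison, against 6.56%, 5.4% and 7.76% of all genes. Hrh1, the member nearest to detection there, differed from vehicle by 0.21 ± 0.15 (SE, n = 8 each, 95% interval -0.11 to 0.52) under olanzapine and by 0.02 ± 0.15 (SE, 95% interval -0.29 to 0.34) under risperidone. The 8 log2 fold changes lay between -0.11 and 0.22 under olanzapine and between -0.22 and 0.21 under risperidone. None of the 78 surrounding genes was called in these comparisons.

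In the pancreas, limma called 0 genes in each of the 3 comparisons (0% of all genes). At an unadjusted p under 0.05, 0 of 8 members passed for olanzapine against vehicle (8.24% of all genes), 1 for risperidone against vehicle (3.24%) and 0 for olanzapine against risperidone (4.02%). The 1 was Hrh3, with 4.79, 5.40 and 6.78 as its lowest, median and highest values in risperidone-treated mice, against 4.35, 4.77 and 5.10 in vehicle-treated mice. In 6 of 8 risperidone-treated mice Hrh3 was above every vehicle-treated mouse, and its log2 fold change was 0.68 ± 0.24 (SE, n = 8 each, adjusted p = 0.999, exact permutation p = 0.00408). All of these values lay below background. Acinar markers varied widely, with a mean between 13.89 and 19.88 in risperidone-treated mice and between 13.85 and 19.93 in vehicle-treated mice, and with that mean as a covariate the log2 fold change of Hrh3 was 0.74 ± 0.23 (SE). Chrm3, the acinar and beta cell receptor, differed from vehicle by 0.18 ± 0.23 (SE, 95% interval -0.30 to 0.65) under olanzapine and by 0.13 ± 0.23 (SE, 95% interval -0.34 to 0.61) under risperidone. It had medians of 8.33, 8.12 and 8.02 in olanzapine-treated, risperidone-treated and vehicle-treated mice, with ranges that overlapped. Chrm2, the receptor of the pancreas that came nearest to detection, had 8.56, 8.83 and 9.44 as its lowest, median and highest values in olanzapine-treated mice, 8.03, 8.65 and 9.18 in risperidone-treated mice, and 8.13, 8.74 and 9.59 in vehicle-treated mice. The islet marker Ins2 was above background on all 24 pancreatic arrays, but ranged from 10.23 to 19.78. The other 3 islet markers measured were above background on fewer arrays, Gcg on 10, Iapp on 5 and Sst on 4.

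In the adipose tissue, limma again called 0 genes in each comparison of treatments (0% of all genes). At an unadjusted p under 0.05, 1 of 8 members passed for olanzapine against vehicle (5.46% of all genes), 0 for risperidone against vehicle (9.03%) and 0 for olanzapine against risperidone (9.23%). Adipose Hrh1 had 6.62, 6.96 and 8.14 as its lowest, median and highest values in olanzapine-treated mice, against 7.38, 7.48 and 7.81 in vehicle-treated mice. In 6 of 8 olanzapine-treated mice Hrh1 was below every vehicle-treated mouse and in 1 it was above all of them. Its log2 fold change was -0.39 ± 0.19 (SE, n = 8 each, adjusted p = 0.783, exact permutation p = 0.0310), with -0.65 in females and -0.14 in males. Hrh1 was below background on every adipose array. Adipose Chrm2 had medians of 8.34 in olanzapine-treated mice, 8.40 in risperidone-treated mice and 8.55 in vehicle-treated mice, and differed from vehicle by -0.15 (95% interval -0.48 to 0.18) under olanzapine and by -0.08 (95% interval -0.41 to 0.24) under risperidone. None of the 78 surrounding genes was called between treatments in the pancreas or adipose tissue.

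Adipose Hrh3 had 4.16, 4.71 and 5.58 as its lowest, median and highest values in risperidone-treated mice, against 3.86, 4.32 and 4.80 in vehicle-treated mice. The log2 fold change was 0.37 ± 0.21 (SE, n = 8 each, adjusted p = 0.592), with an exact permutation p of 0.00857. It was 0.32 in females and 0.41 in males. In males, epididymis markers differed between these groups too. The mean of 4 epididymis markers was above that of every female in 4 of 4 risperidone-treated males, 2 of 4 olanzapine-treated males and 1 of 4 vehicle-treated males. With that mean as a covariate the log2 fold change of Hrh3 was 0.11 ± 0.25 (SE), and without those 7 males it was 0.26 ± 0.19 (SE).

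**Figure D4:**
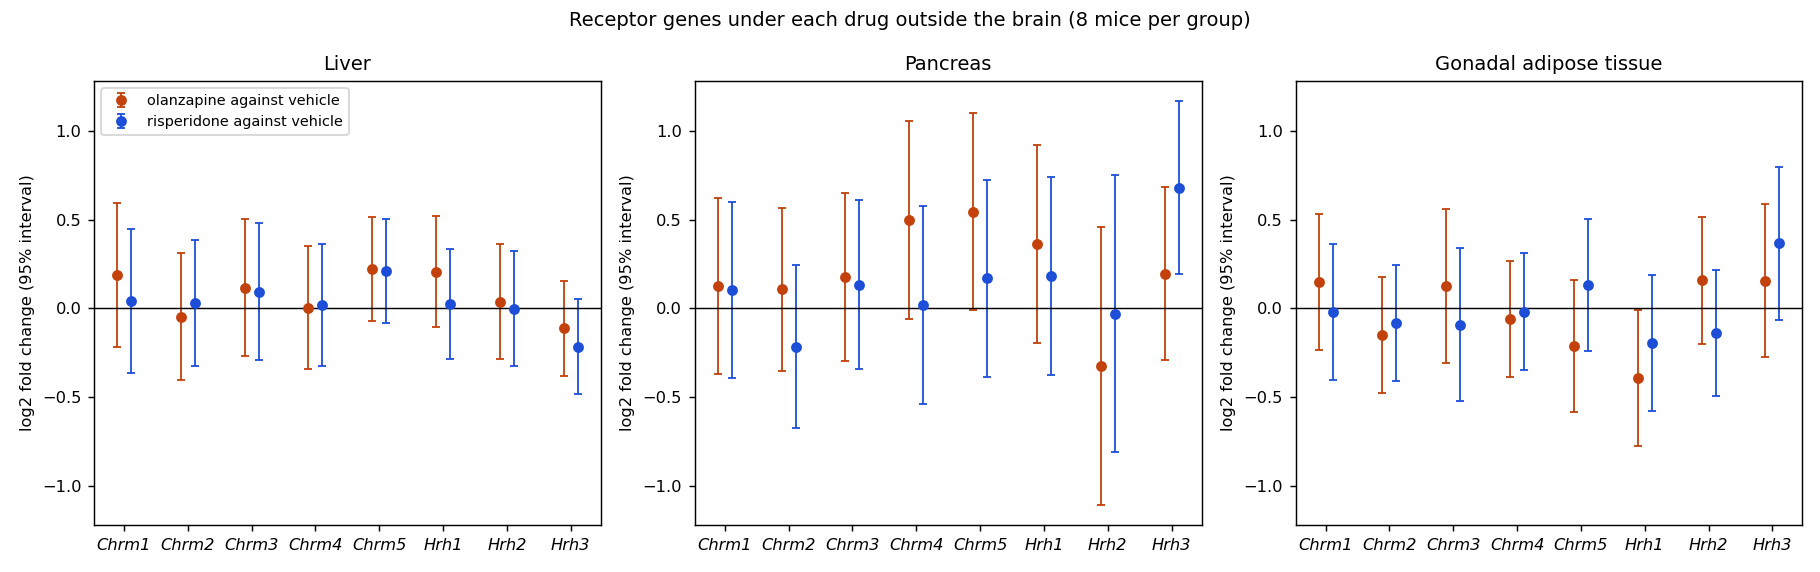
Log2 fold changes of the 8 receptor genes under olanzapine and under risperidone, each against vehicle, in the liver, pancreas and adipose tissue, with 95% intervals (8 against 8 mice). No member passed an adjusted p under 0.05, and the intervals of pancreatic Hrh3 under risperidone and adipose Hrh1 under olanzapine are the 2 that exclude 0.

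Over the 96 tests of 8 members in 12 comparisons of treatments, 9 gave an exact permutation p under 0.05, or 9.38%. Over all genes and the same 12 comparisons the share was 7.43%, so the members were close to the background when pooled. They were not spread evenly. In the striatum 4 of 8 members passed for olanzapine against risperidone (19.0% of all genes) and 2 of 8 for olanzapine against vehicle (8.67%). The rest were 1 of 8 each for risperidone against vehicle in the pancreas (3.62%) and adipose tissue (6.97%) and olanzapine against vehicle in the adipose tissue (7.49%). The exact permutation of all genes with Benjamini-Hochberg adjustment called 330 genes for olanzapine against risperidone in the striatum, Chrm4 among them, and 0 genes in each of the other 11 comparisons.

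Females and males were compared within each tissue across the treatments, and 1 member was called. Adipose Hrh3 had 3.86, 4.18 and 4.88 as its lowest, median and highest values in 12 females, against 4.16, 4.67 and 6.11 in 12 males. The log2 difference was -0.60 ± 0.17 (SE, adjusted p = 0.0418), and the exact permutation p was 0.000204. In that comparison 897 genes were called (4.6% of all genes). All values of Hrh3 were below background, and epididymis markers differed between the sexes too, with Adam7 lower in females by a log2 difference of -5.26. Hrh3 had a median of 4.72 in the 7 males with epididymis markers above every female and 4.55 in the other 5 males. With the epididymis mean as a covariate, the difference was -0.35 ± 0.21 (SE, adjusted p = 0.324), and without those 7 males it was -0.46 ± 0.16 (SE, adjusted p = 0.0732).

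**Figure D5:**
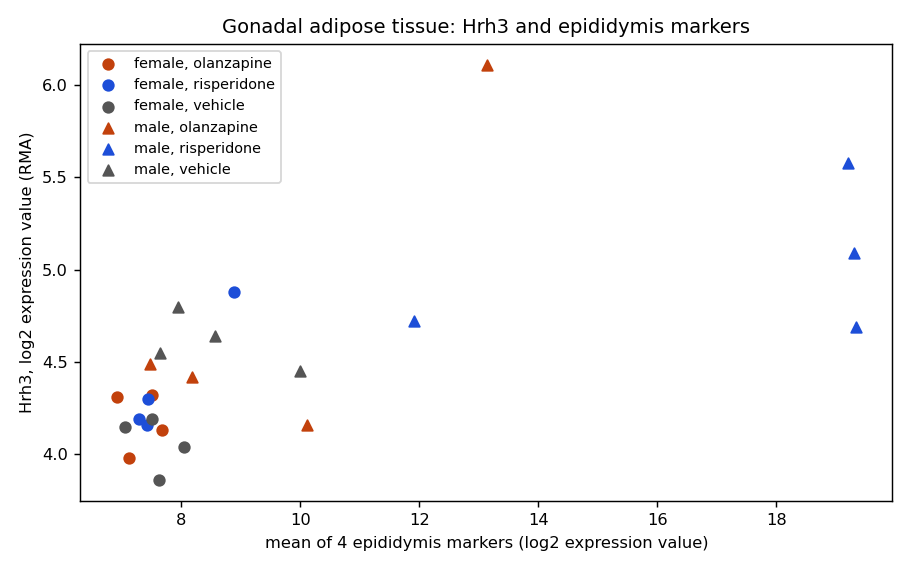
Log2 expression value of Hrh3 in the gonadal adipose tissue of each mouse against the mean log2 value of 4 epididymis markers, with circles for females, triangles for males and colours for treatment. Females lie between 3.86 and 4.88 on the vertical axis and males between 4.16 and 6.11, and the 3 males at the far right were treated with risperidone.

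No other member differed between the sexes by the same rule. Of all genes, 0.39% were called for striatum, 6.23% for liver and 0.108% for pancreas, with 0 of 8 members in each. Hepatic Hrh1 had 5.98, 6.38 and 6.95 as its lowest, median and highest values in females, against 5.55, 5.97 and 6.75 in males, a log2 difference of 0.31 ± 0.12 (SE, adjusted p = 0.156, exact permutation p = 0.0190). Of the surrounding genes, Bche, butyrylcholinesterase, was higher in female livers (1.18 ± 0.22, SE, adjusted p = 0.000519), as was Maob (0.74 ± 0.13, SE, adjusted p = 0.000390). Hnmt, which methylates histamine, was lower in female livers (-0.64 ± 0.15, SE, adjusted p = 0.00827) and higher in female adipose tissue (0.99 ± 0.26, SE, adjusted p = 0.0259). Kupffer cell markers also differed between the sexes in the liver, where 5 of 5 were called higher in females, with a median log2 difference of 0.72. The mean of this list had a median of 9.27 and a lowest value of 8.97 in 12 females, against a median of 8.43 and a highest value of 8.64 in 12 males, with no overlap. The part of Kupffer cells in the differences of Hrh1, Bche, Maob and Hnmt was not tested.

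Whether a drug acted differently in females and males was tested as an interaction. limma called no member in any of the 64 tests. At an unadjusted p under 0.05, 2 of these 64 tests passed, and the share of all genes passing that threshold was not computed. One was Chrm1 for risperidone in the striatum, with differences from vehicle of -0.30 in females and 1.19 in males (adjusted p = 0.852), and the other was Chrm5 for olanzapine in the pancreas (adjusted p = 0.998). The share of all genes called was 0.0513% for risperidone in the adipose tissue and 0% for the other 7 combinations of drug and tissue. The lowest adjusted p of a member was 0.450.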

How the data were processed

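Groups came from the sample labels. The values deposited are on a log2 scale after RMA, a background correction, quantile normalization and summary over probes, and Affymetrix Expression Console 1.4 is named in the submitters' processing notes. Whether arrays were normalized together over tissues, and a genome build for the probes, are not given in the sources used here. Of 22206 transcript clusters, 19572 carry 1 gene symbol, and averaging those of 55 genes left 19505.

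Genes were tested with limma 3.58.1 in R 4.3.3, each tissue being fitted alone with terms for treatment and sex, without a filter, and with Benjamini-Hochberg adjustment over 19505 genes. Single members were also tested by an exact two-sided permutation of mice within sex. Promoters came from RefSeq (GRCm38.p6). The fits were tested on simulated data. Members and lists were chosen with earlier results of these data known. All members were named. Genes of the lists were named if called, otherwise among the 3 with the lowest p. Alternatives left out mice, sexes or terms and changed the scaling, the prior, the weights, the filter and the background. Replicates are separate mice, and the number of arrays limits the precision.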

Additional observations from a re-analysis of the deposited data

Results flagged for a closer look

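In 7 of 96 groups of 8 mice, 1 mouse lay further from the nearest other than Dixon's test allows at 5%, and chance alone would give this in about 5% of groups. In the striatum, Chrm1 was 10.19 in risperidone-treated mouse F23, against 11.06 in the next lowest mouse, and F23 is the risperidone-treated mouse above the gap in the septum and thalamus markers. In the liver, Chrm5 was 3.63 in olanzapine-treated mouse F26, against 4.02 in the next. Of the pancreas arrays, vehicle-treated mouse F21 had 7.95 for Chrm1 (next 6.47) and vehicle-treated mouse M3 had 8.17 for Hrh2 (next 5.68). Risperidone-treated mouse F4 had 5.73 for Hrh1 in the pancreas (next 6.89), and the same array had 6.78 for Hrh3 (next 5.72). In the adipose tissue, Hrh3 was 6.11 in olanzapine-treated mouse M9 (next 4.49), whose epididymis marker mean was 13.13. The values outside the striatum all lay below background.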

How the results depend on the processing

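No paired analysis was possible because the groups compared hold different mice that share no replicate numbers. Chrm1 and Chrm4 in striata of olanzapine-treated against risperidone-treated mice gave 2 calls. The count was 0 in females alone, 0 in males alone, 1 with a trended and robust prior and 1 by exact permutation of all genes, Chrm4 being the one kept. The exact permutation called 330 genes there, against 948 by limma. The count of members was 0 with septum and thalamus markers as a covariate and 0 with these and cortical markers. It was also 0 above the marker gap, where risperidone is F23 alone, and 0 below it, where olanzapine is M9 alone, and with 1 mouse in an arm these counts say nothing about stability. All 4 settings were added after seeing the data, and a lone mouse is assumed to vary like the other groups. Leaving out 1 mouse gave 1 to 3 calls. Chrm4 was called each time (adjusted p 0.00227 to 0.0321). Chrm1 was not called without any of 7 risperidone-treated mice (all but F23) or without olanzapine-treated mice F7, F9, F26, M25, M26 or M27 (its adjusted p ranged from 0.00250 to 0.0919). Hrh3 was called without olanzapine-treated M9 or M27, and with array weights. For olanzapine against vehicle in the striatum, females alone gave 1 call (Chrm5), and leaving out 1 mouse gave 0 to 1 (Chrm5, without vehicle-treated M3 or olanzapine-treated M9).

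Below the marker gap, M9 was the only olanzapine-treated mouse, so the differences there rest on 1 animal. Its difference from vehicle had the opposite sign, at 0.14 for Chrm1 and 0.093 for Hrh3. The difference of M9 from risperidone also had the opposite sign there, at 0.35 for Chrm1, -0.53 for Chrm5 and 0.069 for Hrh3. The sex difference in adipose Hrh3 gave 0 calls with arrays centred on their median, 0 with the epididymis covariate, 0 without the males that had such markers, 0 without dim genes (Hrh3 being filtered out), and 0 to 1 when 1 mouse was left out. It was lost without any of 16 of the 24 mice (adjusted p up to 0.0808). Chrm5 was filtered out in the striatum too. Of the members above background on all arrays of a tissue, 5 became 3 at the 99th percentile and 3 with vomeronasal receptor genes. The cause of these losses was not tested. All other counts stayed within 1.5 times, and no other log2 fold change recomputed changed sign.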
